A study of Drosophila melanogaster with 6 samples.

Results

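The deposited count tables list 5578 copies of transposable elements among 23932 rows, and 400 of these copies (7.17%) reached a mean count of at least 10 over the 6 libraries. These 400 expressed copies are described here. They were chosen by their mean read count, so that the level of the copies is a description and not a finding. Of the other 5178 copies, 3379 had a count of 0 in all 6 libraries and 1799 had some reads but stayed under the minimum.

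The RNA came from S2R+ cells, an established Drosophila melanogaster line that the labels place at a late embryonic stage. It was depleted of ribosomal RNA and copied with TGIRT, a group II intron reverse transcriptase that reads through structured RNA, so that long and short RNAs stand in one library. By their labels, 3 libraries (dsFib) came from cells that received RNA interference against Fibrillarin, the enzyme that methylates RNA in box C/D snoRNA particles. The other 3 (dsLacZ) are labelled as controls given double-stranded RNA of the bacterial lacZ gene. All 6 came from the same line, grown in serum-supplemented Schneider's medium, and no label says whether replicates were separate cultures.

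Transposable elements are repeated DNA sequences that can move within a genome. LTR retrotransposons such as copia, gypsy and roo copy themselves through a full-length RNA that is reverse transcribed in particles, non-LTR elements such as jockey and R2 are reverse transcribed at the site of insertion, and DNA transposons such as 1360 and FB move without an RNA copy. In fly somatic cells their RNA is cut by the siRNA pathway of Dcr-2 and AGO2, and in gonads it is silenced by the piRNA pathway. Cultured fly cell lines are known to have gained insertions that the reference genome lacks, and reads from those can be counted only on the reference copies.

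The libraries held between 11695250 and 15172052 counts. The target gene went against the label: Fib had 1312, 954.9 and 994.3 CPM in the libraries labelled dsFib, against 213.9, 257.4 and 227.4 CPM in those labelled dsLacZ, a 4.67-fold higher level (log2 fold change 2.22, SE 0.15, edgeR adjusted p = 0.00103). Which libraries came from which cells is therefore in doubt. Whether the labels were exchanged, or whether reads of the introduced double-stranded RNA were counted on Fib, was not tested. If the labels were exchanged, every direction given here would be the opposite. CPM here is the deposited count scaled to a common library total after TMM normalization, and all fold changes divide the level in the libraries labelled dsFib by that in those labelled dsLacZ. Nuclear tRNA genes took 14.9, 13.4 and 15.3% of the counts in the libraries labelled dsFib, and 10.8, 18.3 and 11.1% in those labelled dsLacZ, of which replicate 2 stood apart. Of 12 plasmatocyte (blood cell) markers 8 exceeded 1 CPM, while NimC1, Sr-CI, eater and He did not and He was at 0. Their summed level was 1049 to 1203 CPM in the libraries labelled dsFib and 1254 to 1295 CPM in those labelled dsLacZ, carried mostly by Pvr and crq, while Hml and Col4a1 were higher in every library labelled dsFib than in any labelled dsLacZ. All 3 muscle markers were at or under 1 CPM, as were 2 of 3 neuronal ones (Syt1 and brp), 2 of 7 germline ones (vas and nos) and 1 of 3 ovarian somatic ones (tj). The other markers of these lists were present, among them elav at 26.8, aub at 101.5, krimp at 61.4, fs(1)Yb at 44.6 and zfh1 at 115.3 CPM on average. The receptor genes fz and fz2, which tell S2R+ from S2 cells, were both present: fz had 30.4 to 35.2 CPM in the libraries labelled dsFib and 15.9 to 22.4 CPM in those labelled dsLacZ, and fz2, whose groups overlapped, had 14.6 to 16.6 CPM in the libraries labelled dsFib and 10.9 to 15.3 CPM in those labelled dsLacZ. The part of these differences in the results below was not tested, and in bulk RNA fewer cells of a kind and less RNA per cell cannot be told apart.

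The expressed copies were mostly long, which a choice by read count without correction for length favours. Their median length was 5147.5 nucleotides, against 311.5 nucleotides for the copies under the minimum, and 64.3% of them were longer than 4000 nucleotides, against 10.9%. Their mean counts lay between 10 and 12641, with a median of 29.7, and their mean TPM, the deposited length-corrected value, lay between 0.0127 and 85.1, with a median of 0.350. A few copies held most reads. The single highest copy took 10.4% of all transposable element counts, the highest 12 took 43.0%, and the highest 50 took 81.3%. At the minimum itself, 1360{}1480, 412{}165 and INE-1{}5124 were just inside with mean counts of 10, 10.005 and 10.2, and 297{}327, invader6{}2352 and INE-1{}5118 were just outside with 9.91, 9.84 and 9.83.

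By the first part of their names the members belonged to 78 elements, and 6 carried no element name. Among the 78 is RR49783, from the copy named RR49783{}mdg1, which was counted apart from mdg1 and from the classes below. LTR retrotransposons made up 262 of them: 176 gypsy-like copies, 47 of the BEL/Pao class, to which roo and 3S18 belong, and 39 of the Ty1/copia class. There were also 49 non-LTR copies, 47 DNA transposon copies and 35 copies of INE-1, a short element related to Helitrons that is the most numerous in the annotation. The LTR copies held 92.1% of all transposable element counts, non-LTR copies 1.98%, DNA transposons 1.24% and INE-1 0.910%. By position, 192 members lay outside genes, 105 inside a gene on its own strand, 86 inside a gene on the opposite strand, and 17 overlapped a gene in part. Chromosome arm 2R held 120 members, 3L 82, 2L 67, 3R 63, X 54, chromosome 4 held 13 and Y held 1.

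Copies of one element share reads. Of the member values 65.1% were fractional counts, the mark of reads divided between copies, against 7.53% of the values of all other rows. Those other rows include 3379 copies without a read in any library, whose values are always whole. The contrast therefore depends in part on level, and expressed rows that are no copy were not compared apart. Copy by copy values of elements whose copies share reads are uncertain. Of the members, 299 had a fractional count in at least 1 library and 101 had whole counts in all 6. The sum over all annotated copies of an element does not depend on how reads were divided within it, and both levels are given below.

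All annotated copies together took 0.938, 1.01 and 0.940% of the counts in the libraries labelled dsFib and 1.01, 0.745 and 0.892% in those labelled dsLacZ. The groups overlapped, with means of 0.962 ± 0.041% and 0.882 ± 0.133% (SD, n = 3 each, two-sided exact permutation p = 0.5). With tRNA, snoRNA, snRNA and rRNA genes left out of the total, the share was 1.47, 1.49 and 1.48% in the libraries labelled dsFib against 1.43, 1.28 and 1.34% in those labelled dsLacZ. These did not overlap, at an exact permutation p = 0.1, the smallest that 3 libraries against 3 allow.

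The element sums place copia far above the rest. Its copies together took 45.9% of all transposable element counts, followed by 1731 with 11.2%, 3S18 with 8.70% and springer with 8.02%.

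**Figure D1:**
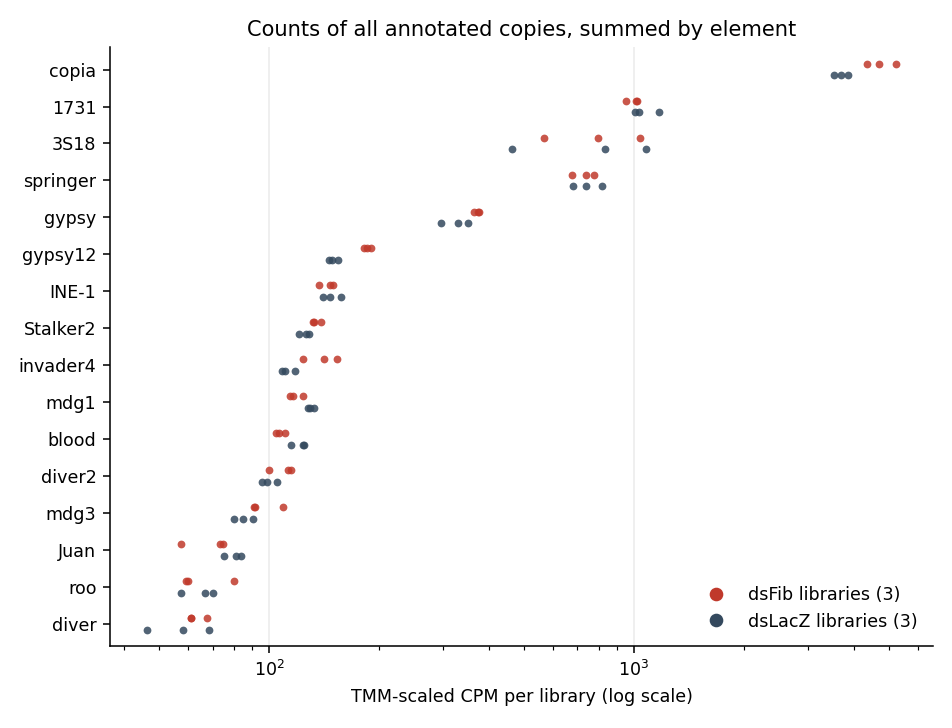
Summed TMM-scaled CPM (log axis) of all annotated copies for the 16 elements with the highest level, 1 point per library, with the libraries labelled dsFib above those labelled dsLacZ in each row. The 3 copia points of the libraries labelled dsFib lie at 4358 to 5216 CPM, to the right of the 3542 to 3863 CPM of those labelled dsLacZ, while the points of 1731, 3S18 and springer overlap between the groups.

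For copia the sum was 4705, 4358 and 5216 CPM in the libraries labelled dsFib, against 3542, 3863 and 3698 CPM in those labelled dsLacZ. The groups did not overlap, and the 1.29-fold difference (log2 fold change 0.36, SE 0.13) did not pass the threshold of 0.05 (edgeR adjusted p = 0.235 over all 7988 features). The element 1731, also of the Ty1/copia class, had 949.8, 1016 and 1015 CPM in the libraries labelled dsFib and 1169, 1006 and 1035 CPM in those labelled dsLacZ, which overlapped (log2 fold change -0.11, edgeR adjusted p = 0.696). As a share of all transposable element counts, which needs no scaling between libraries, copia took 48.3, 45.3 and 52.4% in the libraries labelled dsFib and 39.3, 46.7 and 43.1% in those labelled dsLacZ. On that measure the groups overlapped, through replicate 2 of each.

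The BEL/Pao element 3S18 had the widest spread, in proportion to its mean, of the 4 most abundant elements. It had 795.2, 1037 and 565.0 CPM in the libraries labelled dsFib and 1082, 464.5 and 833.6 CPM in those labelled dsLacZ, so that the libraries labelled dsLacZ held both the highest and the lowest value, and the log2 fold change was 0.01 (SE 0.31). The gypsy-like element springer had 740.5, 778.6 and 674.9 CPM in the libraries labelled dsFib and 814.9, 679.1 and 738.8 CPM in those labelled dsLacZ. Its groups overlapped too, at a log2 fold change of -0.03.

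The other elements among the 8 most abundant were gypsy, gypsy12 and Stalker2, all gypsy-like, and INE-1. The sum for gypsy was 376.3, 372.9 and 364.8 CPM in the libraries labelled dsFib and 350.5, 296.0 and 330.0 CPM in those labelled dsLacZ (log2 fold change 0.19, edgeR adjusted p = 0.4001). That for gypsy12 was 190.3, 181.4 and 185.6 CPM in the libraries labelled dsFib and 154.6, 148.8 and 146.3 CPM in those labelled dsLacZ (log2 fold change 0.31, edgeR adjusted p = 0.132). In both the groups did not overlap, with the libraries labelled dsFib on top. Stalker2 had 138.6, 132.2 and 132.4 CPM in the libraries labelled dsFib and 126.5, 120.5 and 128.4 CPM in those labelled dsLacZ, with a log2 fold change of 0.10. INE-1 had 147.2, 149.8 and 137.3 CPM in the libraries labelled dsFib and 157.7, 146.5 and 140.3 CPM in those labelled dsLacZ, which overlapped. For INE-1 the 35 expressed copies of 2235 held only 57.2% of the element's counts.

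Of the 91 elements tested 78 held at least 1 expressed copy. None of the 91 passed the adjusted threshold in edgeR, where 0.638% of all features were called higher and 0.388% lower, and none did in limma-voom. At an unadjusted p under 0.05 there were 12 higher (13.2% of the elements, against 8.22% of all features) and 2 lower (2.20%, against 7.87%). In 17 elements every library labelled dsFib exceeded every library labelled dsLacZ and in 8 the reverse held, where 11.6% of all features did so in each direction. There were 52 elements with a log2 fold change above 0 and 39 below, where 49.9% of all features were above 0 and 50.1% below, and the median over elements was 0.04, against -0.00 over all features.

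The elements described next were picked for mention after their values were seen, from the 10 with adjusted p-values below that of copia. Xanthias, with a single annotated copy, had 37.9, 37.8 and 37.7 CPM in the libraries labelled dsFib and 31.4, 25.3 and 24.4 CPM in those labelled dsLacZ (log2 fold change 0.48, edgeR adjusted p = 0.113). The LTR element invader1 had 61.9, 58.2 and 63.6 CPM in the libraries labelled dsFib and 50.4, 35.4 and 44.0 CPM in those labelled dsLacZ (log2 fold change 0.50, edgeR adjusted p = 0.124). Neither group pair overlapped. R2, a non-LTR element that inserts into the 28S ribosomal RNA genes, had 21.3, 10.7 and 20.8 CPM in the libraries labelled dsFib and 9.63, 9.01 and 8.91 CPM in those labelled dsLacZ (log2 fold change 0.93, edgeR adjusted p = 0.133). Its value in the library labelled dsFib replicate 2 lay near those of the libraries labelled dsLacZ, and R2 was the single element that DESeq2 called (adjusted p = 0.0252). R1A1, another non-LTR element, had 4.002, 4.16 and 4.54 CPM in the libraries labelled dsFib and 1.82, 2.59 and 2.19 CPM in those labelled dsLacZ (log2 fold change 0.95, edgeR adjusted p = 0.182). The remaining elements of these 10 with positive log2 fold changes were gypsy12 (above), ninja-Dsim-like (0.42, adjusted p = 0.155), G5A (1.31, 0.202) and invader4 (0.31, 0.203 in edgeR), none of which overlapped between the groups. G5A held no expressed copy. In the other direction, the gypsy-like element 297 had 52.8, 53.8 and 56.0 CPM in the libraries labelled dsFib and 60.2, 69.3 and 67.7 CPM in those labelled dsLacZ (log2 fold change -0.28, edgeR adjusted p = 0.211). FB, a DNA transposon with long inverted repeats, had 9.69, 9.29 and 9.14 CPM in the libraries labelled dsFib and 12.4, 12.3 and 13.2 CPM in those labelled dsLacZ (log2 fold change -0.43, edgeR adjusted p = 0.226).

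Copy by copy, 382 of the 400 members passed the filter on low counts and were tested among 8302 genes and copies. In edgeR 1 copy was called higher and none lower at an adjusted p under 0.05, where 0.53% of all genes were called higher and 0.373% lower. At an unadjusted p under 0.05 there were 46 higher and 15 lower members, against 7.67% and 8.26% of all genes, and 61 members did not overlap with the libraries labelled dsFib on top and 24 with them below, against 11% and 12.1%. Of the tested members 204 had a log2 fold change above 0 and 178 below, where 48.3% of all genes were above 0, and the median was 0.04 against -0.01. The 46 include 24 copia copies that share reads with each other. DESeq2 called 12 members higher and 2 lower, where it called 2.28% of all genes higher and 1.58% lower.

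**Figure D2:**
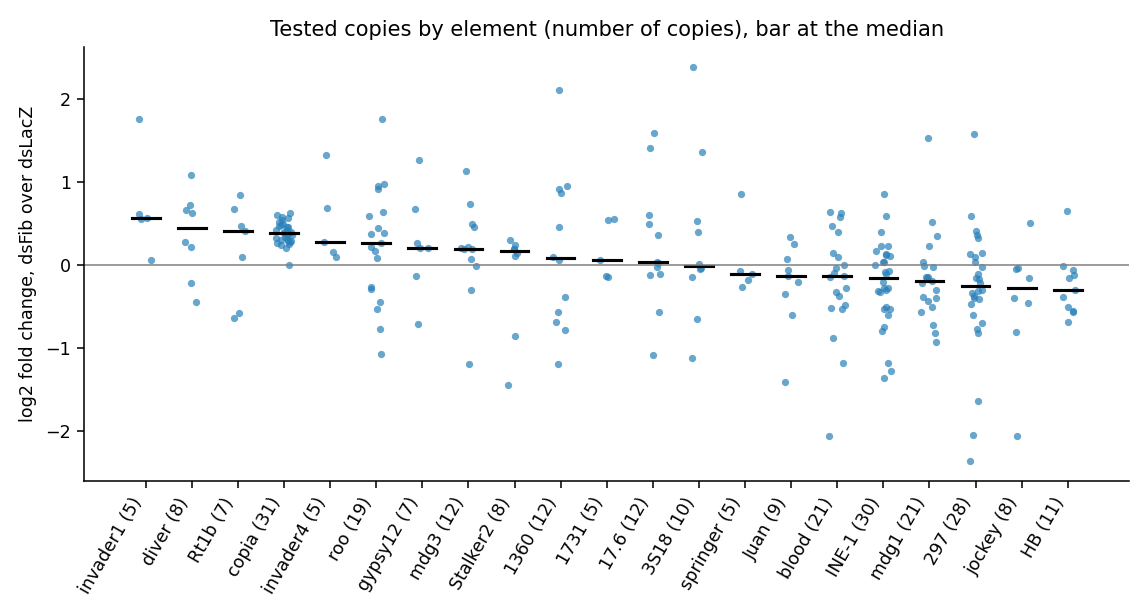
Log2 fold change, libraries labelled dsFib over those labelled dsLacZ, of each tested copy (points) for elements with at least 5 tested copies, ordered by their median (bar); the number of copies stands beside the name. The copia copies lie between -0.00 and 0.63 around a median of 0.38, while the copies of 3S18 and 297 spread over both sides of 0.

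The 31 expressed copia copies, of 39 annotated, held 99.99% of the element's reads, and 27 of them were within 20 nucleotides of their median length of 5146, that of a full-length copia. They differed in level from 1.26 TPM for copia{}302, in the gene for, to 50.9 TPM for copia{}837, outside genes at chr2R:16539693-16544843 (plus strand, build BDGP6, the coordinates of dm6). The copy copia{}837 took 15.3% of the element's counts. All 31 had fractional counts in every library.

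For copia{}837 the libraries labelled dsFib had 712.2, 660.8 and 779.4 CPM and those labelled dsLacZ had 578.4, 572.6 and 567.7 CPM. The groups did not overlap (log2 fold change 0.32, SE 0.10, edgeR adjusted p = 0.193). The next in level, copia{}1016 on the opposite strand of an intron of Lasp, had 377.3, 358.7 and 403.1 CPM in the libraries labelled dsFib and 284.8, 323.8 and 280.9 CPM in those labelled dsLacZ. The third, copia{}1349 opposite to beat-Vb, had 305.7, 302.3 and 374.3 CPM in the libraries labelled dsFib and 278.0, 293.5 and 261.8 CPM in those labelled dsLacZ. These 2 did not overlap either, at log2 fold changes of 0.36 and 0.24. The copies copia{}997 (opposite to bbg), copia{}631 (opposite to Nipped-A), copia{}49 and copia{}342 (both outside genes) had log2 fold changes of 0.30, 0.29, 0.34 and 0.38, again with every library labelled dsFib above every library labelled dsLacZ. Of these hosts, Nipped-A, which encodes a subunit of histone acetyltransferase complexes, was itself measured at 229.6, 230.4 and 235.1 CPM in the libraries labelled dsFib and 193.2, 158.4 and 181.5 CPM in those labelled dsLacZ, while Lasp and beat-Vb had no counts.

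**Figure D3:**
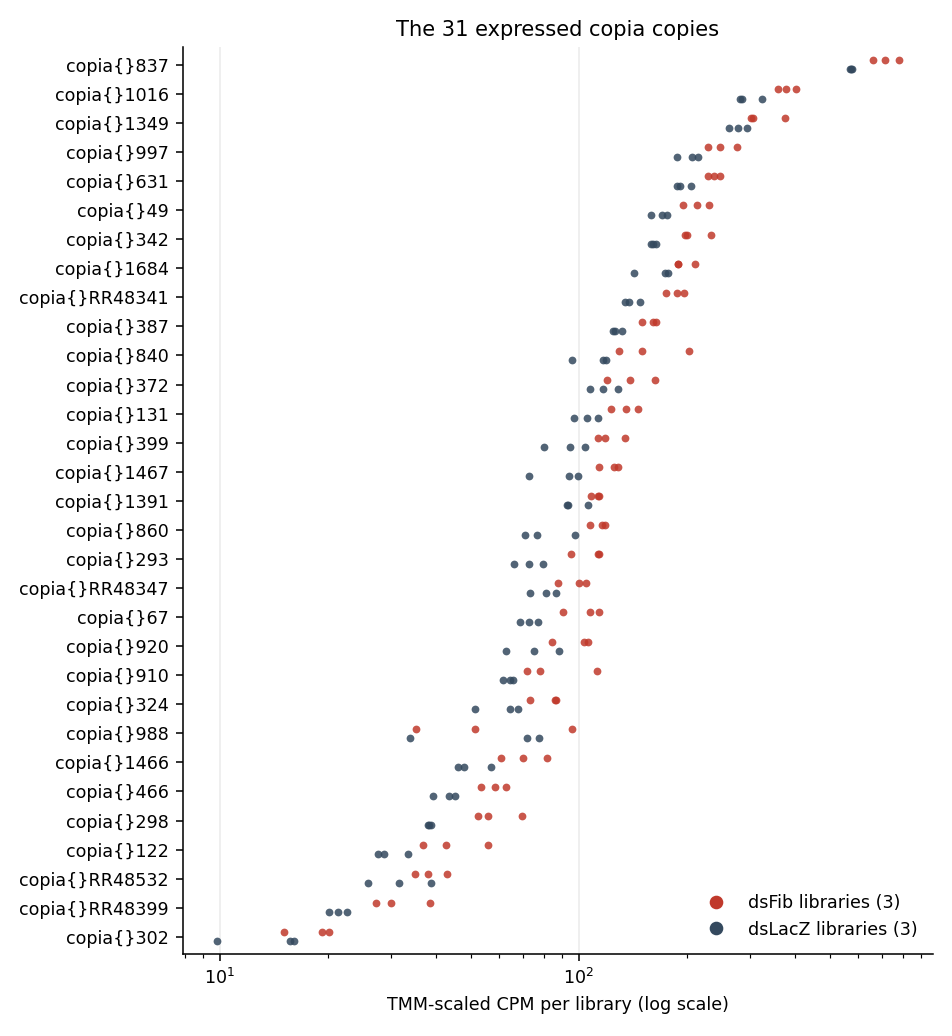
TMM-scaled CPM (log axis) of the 31 expressed copia copies, 1 point per library, with the libraries labelled dsFib above those labelled dsLacZ in each row and copies ordered by mean level. In 26 of 31 rows the 3 points of the libraries labelled dsFib lie to the right of all 3 of those labelled dsLacZ; copia{}988 is the copy whose groups are most mixed.

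Of the 31 copia copies 30 lay above 0, against 48.3% of all genes, and their median log2 fold change was 0.38. In 26 every library labelled dsFib exceeded every one labelled dsLacZ, as in 11% of all genes. An unadjusted edgeR p under 0.05 was found for 24, all higher, against 7.67% of all genes. None of the 31 was called by edgeR. The smallest adjusted p-values were those of copia{}298 and copia{}293, at 0.0546 and 0.0614. The copy copia{}298, opposite to toc, had 69.5, 52.3 and 56.0 CPM in the libraries labelled dsFib and 38.2, 38.1 and 38.6 CPM in those labelled dsLacZ, a log2 fold change of 0.63 (SE 0.12), the highest of the element. The exception was copia{}988, a shorter copy of 4424 nucleotides, with 51.4, 35.2 and 96.0 CPM in the libraries labelled dsFib and 71.6, 33.9 and 77.2 CPM in those labelled dsLacZ. Since the copies share reads, these counts are not independent of each other, and the element sum above is the measure with less uncertainty. The highest library was the one labelled dsFib replicate 3 for 25 of the 31 copies and the lowest was the one labelled dsLacZ replicate 1 for 21. DESeq2 called 7 of the 31 higher, where it called 2.28% of all genes higher. Leaving out dsLacZ replicate 2, the library with the high tRNA share, edgeR called 10, where it called 2.59% of all genes higher in that fit. A member with no element name, RR51007 on the opposite strand of Snap25, is 5145 nucleotides long and had 102.0, 85.4 and 83.0 CPM in the libraries labelled dsFib and 69.9, 69.2 and 68.8 CPM in those labelled dsLacZ (log2 fold change 0.38, edgeR adjusted p = 0.133).

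The most abundant member was 1731{}2219, outside genes at chr2R:6346949-6351596 on the minus strand. It had 865.2, 945.1 and 932.4 CPM in the libraries labelled dsFib and 1100, 942.6 and 968.3 CPM in those labelled dsLacZ, and alone held 92.9% of its element's counts. The groups overlapped (log2 fold change -0.13, edgeR adjusted p = 0.612). The other 1731 copies were far lower, among them 1731{}RR43316 in an intron of kl-2, the single member on the Y chromosome. That copy had 22.6, 17.5 and 19.3 CPM in the libraries labelled dsFib and 12.1, 16.5 and 11.9 CPM in those labelled dsLacZ, and was picked for mention after its values were seen (edgeR adjusted p = 0.196).

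The 10 expressed 3S18 copies spread widely within each group. The copy 3S18{}35, in an intron of CG12535 on its own strand, had 206.7, 286.4 and 133.8 CPM in the libraries labelled dsFib and 359.2, 97.7 and 193.7 CPM in those labelled dsLacZ. The copy 3S18{}3955, outside genes, had 230.0, 267.6 and 172.7 CPM in the libraries labelled dsFib and 291.2, 159.5 and 235.7 CPM in those labelled dsLacZ. Both had their highest value in dsLacZ replicate 1 and their lowest in dsLacZ replicate 2, and the lowest library was dsLacZ replicate 2 for 9 of the 10 copies. The median coefficient of variation of 3S18 copies was 39.2% among the libraries labelled dsFib and 57.7% among those labelled dsLacZ, against 9.42% and 7.996% for copia copies. The one 3S18 copy whose groups did not overlap was 3S18{}5563, with 10.5, 22.9 and 7.68 CPM in the libraries labelled dsFib and 3.80, 0 and 3.91 CPM in those labelled dsLacZ (log2 fold change 2.38, SE 0.78, edgeR adjusted p = 0.202). Members varied more than other genes. At a mean of at least 5 CPM the median coefficient of variation was 13.6% among the libraries labelled dsFib and 15.0% among those labelled dsLacZ for members, against 9.50% and 12.4% for genes that are no transposable element copy.

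The one copy that passed the threshold was gypsy{}RR48391, 7461 nucleotides long at chr3R:2952263-2959723 on the minus strand, in an intron of Pzl on that gene's own strand. Gypsy is an endogenous retrovirus of flies that encodes an envelope protein. This copy had 58.2, 48.4 and 84.1 CPM in the libraries labelled dsFib and 25.8, 29.7 and 32.8 CPM in those labelled dsLacZ. The groups did not overlap, and it was 2.16-fold higher in the libraries labelled dsFib (log2 fold change 1.11, SE 0.20, edgeR adjusted p = 0.0463). Pzl itself, which encodes a mechanosensitive channel, had no counts. The call was lost in limma-voom (adjusted p = 0.0613), with total counts as the scaling (0.0700) and in 5 of the 6 fits that left out 1 library (0.0716 to 0.203). It held in DESeq2 (adjusted p = 9.41e-05), in edgeR with no filter on low counts (1.10e-04) and in edgeR without dsLacZ replicate 2 (0.0218).

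Reads of this copy can be shared with other gypsy copies, and its counts were fractional in all 6 libraries. The copy gypsy{}RR50358, of the same length and outside genes, had 52.7, 28.5 and 32.9 CPM in the libraries labelled dsFib and 59.9, 48.6 and 43.5 CPM in those labelled dsLacZ, a log2 fold change of -0.42 (edgeR adjusted p = 0.408). The 2 copies together had 110.9, 76.9 and 116.9 CPM in the libraries labelled dsFib and 85.7, 78.3 and 76.3 CPM in those labelled dsLacZ, and overlapped. The most abundant gypsy copy, gypsy{}RR48375 in an intron of l(3)80Fg on its own strand, had 261.2, 294.1 and 241.4 CPM in the libraries labelled dsFib and 264.3, 218.0 and 250.6 CPM in those labelled dsLacZ (log2 fold change 0.12). With gypsy{}RR48375 the called copy summed to 319.4, 342.5 and 325.5 CPM (labelled dsFib) and 290.1, 247.8 and 283.4 CPM (labelled dsLacZ). With gypsy{}2813 it summed to 59.5, 50.5 and 85.9 CPM (labelled dsFib) and 26.1, 30.9 and 34.7 CPM (labelled dsLacZ). Neither of these sums overlapped between the groups. All gypsy copies other than gypsy{}RR48391 had a log2 ratio of their summed means of 0.04.

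**Figure D4:**
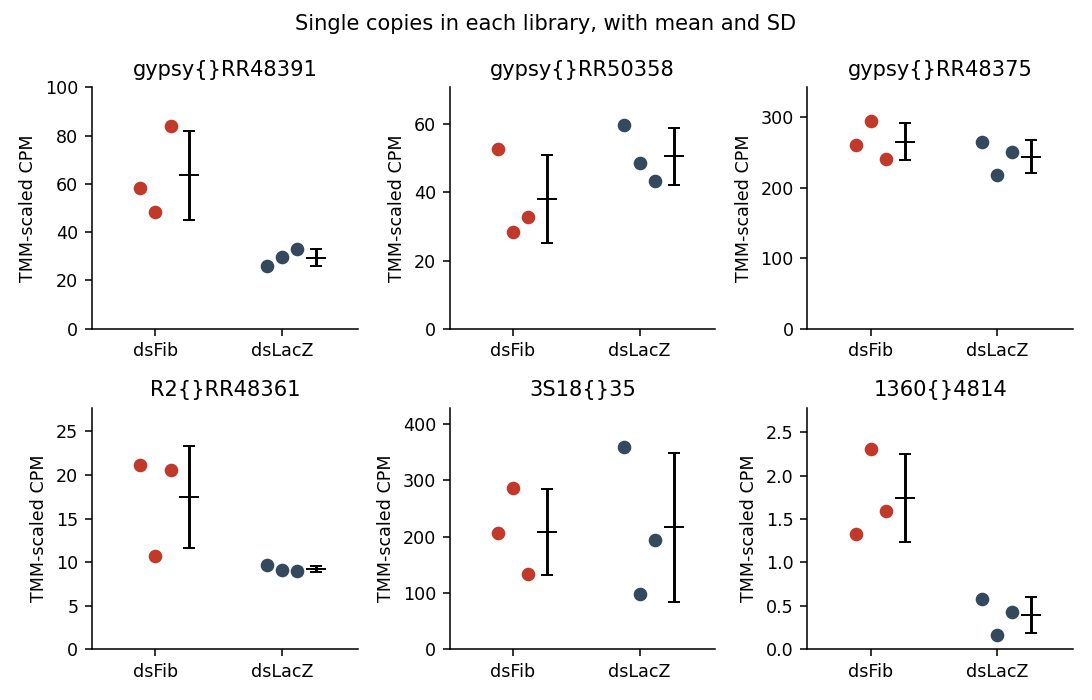
TMM-scaled CPM of 6 single copies, 1 point per library with the mean and SD of the 3 libraries beside them, the libraries labelled dsFib on the left of each panel and those labelled dsLacZ on the right. The points of gypsy{}RR48391, R2{}RR48361 and 1360{}4814 do not overlap between the groups, while those of gypsy{}RR50358, gypsy{}RR48375 and 3S18{}35 do.

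Springer{}59 completed the 12 most abundant members. It lies opposite to rg and had 177.7, 188.8 and 173.1 CPM in the libraries labelled dsFib and 273.8, 194.5 and 147.1 CPM in those labelled dsLacZ. The groups overlapped, at a log2 fold change of -0.19. Another springer copy, springer{}300, had 150.1, 160.3 and 76.0 CPM in the libraries labelled dsFib and 32.5, 126.6 and 55.8 CPM in those labelled dsLacZ, a wider spread in proportion than that of the element's sum.

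Of the 12 copies with the widest differences without overlap, 6 in each direction, 11 had a mean count below the members' median of 29.7. Some reached the minimum only through the group where they are high. Counts of 1360{}4814 were 15, 31 and 23 in the libraries labelled dsFib and 8, 2 and 6 in those labelled dsLacZ. Those of 297{}1721 were 3, 6.10 and 4.22 against 11.5, 23.4 and 21.5. The width of such differences may in part follow from the choice of members and is given as a description. Of those lower in the libraries labelled dsFib, 297{}296, opposite to Syt1, had 0.796, 0.671 and 0.692 CPM in the libraries labelled dsFib and 4.75, 4.95 and 1.56 CPM in those labelled dsLacZ (log2 fold change -2.37, SE 0.53, edgeR adjusted p = 0.0805). The copy blood{}RR48384, of an LTR element, had 1.33, 0.596 and 0.138 CPM in the libraries labelled dsFib and 2.85, 3.11 and 2.49 CPM in those labelled dsLacZ (log2 fold change -2.07, edgeR adjusted p = 0.175). The remaining 4 of the 6 largest such differences were 297{}1721 (log2 fold change -2.05), 297{}93 in RhoU (-1.64), INE-1{}5135 (-1.37) and INE-1{}5116 opposite to ap (-1.28). Their adjusted p-values in edgeR were 0.150 to 0.338, and their levels were below 4 CPM in every library.

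Of those higher in the libraries labelled dsFib, beside 3S18{}5563, the copy 1360{}4814 is a 222-nucleotide fragment of a DNA transposon in an intron of Xrp1, on that gene's own strand. It had 1.33, 2.31 and 1.59 CPM in the libraries labelled dsFib and 0.585, 0.168 and 0.426 CPM in those labelled dsLacZ (log2 fold change 2.11, SE 0.57, edgeR adjusted p = 0.131). Its host Xrp1, a transcription factor known for its part in the response of fly cells to ribosomal protein gene mutations, was called higher. Xrp1 had 320.8, 311.2 and 247.0 CPM in the libraries labelled dsFib and 169.7, 114.6 and 152.0 CPM in those labelled dsLacZ, 2.01-fold (log2 fold change 1.01, SE 0.16, edgeR adjusted p = 0.0329). The other copies of this kind were Stalker4{}1799 (log2 fold change 1.82), invader1{}3949 (1.76), roo{}1265 opposite to CG45263 (1.76) and 17.6{}1116 (1.58). All 4 were below 3 CPM in every library, with adjusted p-values in edgeR of 0.162 to 0.298. The 18 members that the filter left out had mean counts of 10.2 to 34.2. Among them RR48313, which carries no element name and was picked for mention after its values were seen, had counts of 0.5, 41.3 and 161.5 in the libraries labelled dsFib and 0, 1.25 and 0.4 in those labelled dsLacZ.

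Among elements with at least 5 tested copies, the copies of some lay mostly on one side. Copies of one element share reads and are not independent, and the elements were picked for mention after their values were seen. All 5 copies of invader1 and all 5 of invader4, another LTR element, had log2 fold changes above 0, with medians of 0.57 and 0.28. Also above 0 were 9 of 12 mdg3 copies, 13 of 19 roo copies, 6 of 8 of Stalker2 and of diver, and 5 of 7 of gypsy12 and of Rt1b. Summed over all copies, the log2 fold change was 0.03 for roo and 0.13 for diver, and both overlapped between the groups. For mdg3 it was 0.19, and the groups did not overlap, as for gypsy12 and Stalker2 above. Of all genes 48.3% were above 0. Of 21 tested mdg1 copies 16 were below 0, as were 14 of 21 blood copies, 19 of 28 copies of 297, 10 of 11 copies of the DNA transposon HB and 7 of 8 copies of jockey, where 51.7% of all genes were below 0. Their medians were -0.20, -0.14, -0.26, -0.30 and -0.28. The mdg1 figures leave out RR49783{}mdg1, which had a log2 fold change of 0.08. Copies of springer (4 of 5) and Juan (6 of 9) were also mostly below 0. None of the copies of these elements was called by edgeR in either direction. DESeq2 called 297{}296 and blood{}RR48384 lower and mdg1{}1636 and gypsy12{}2629 higher. Copies of the BEL/Pao class had a median of 0.25, with 30 of 46 above 0, and gypsy-like copies one of -0.01, with 84 of 170 above 0. DNA transposon copies had a median of -0.15 and INE-1 copies one of -0.16. The 139 members with a mean count of at least 50 had a median of 0.16, and the 93 tested members with whole counts in all libraries, whose counts show no division of reads, had one of -0.10 with 40 above 0.

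A copy inside a gene can be read as part of that gene's RNA. The 400 members lay in or overlapped 160 genes, of which 96 were tested and Xrp1 alone was called. Where a copy lay on the strand of its host and both were tested, 31 of 65 pairs (47.7%) had log2 fold changes of the same sign, with Pearson's r = 0.15 and Spearman's rho = 0.06. On the opposite strand 28 of 51 pairs (54.9%) had the same sign, with r = 0.04 and rho = 0.02. These correlations are across copies that share libraries, hosts and partly reads, and are given as a description. Whether strand was used in counting is not given in the sources used here, so that reads of a copy and of its host cannot be told apart.

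**Figure D5:**
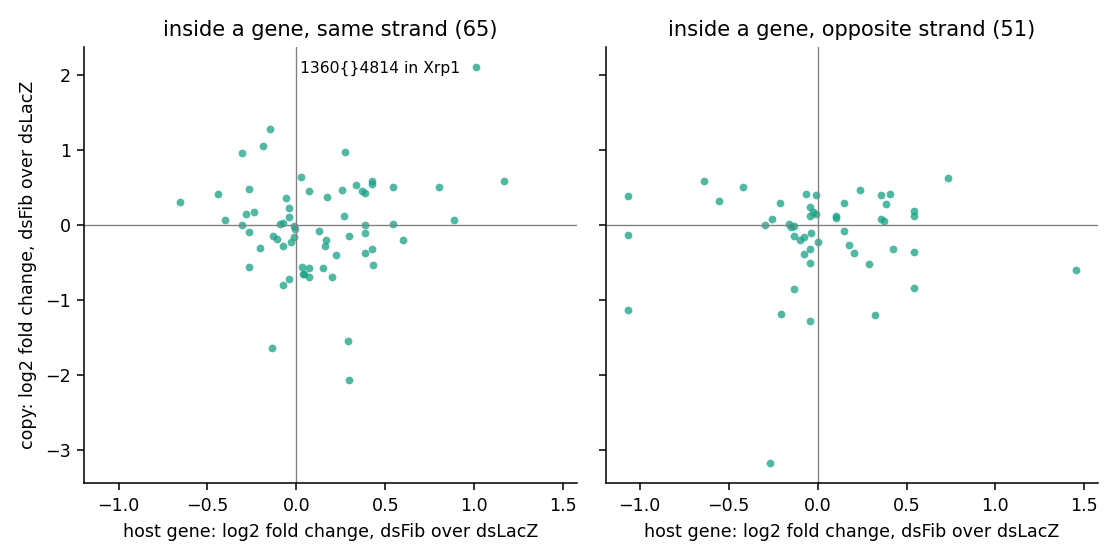
Log2 fold change of a copy (y axis) against that of the gene that holds it (x axis), both for the libraries labelled dsFib over those labelled dsLacZ, for the 65 tested pairs on the same strand (left) and the 51 on opposite strands (right). The points spread around 0 on both axes, and 1360{}4814, at 2.11 against 1.01 for Xrp1, is named in the left panel.

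AGO3, which encodes a PIWI protein of the piRNA pathway, held the most members, 7 copies of 7 different elements. The gene had 13.2, 15.1 and 17.0 CPM in the libraries labelled dsFib and 10.2, 12.1 and 8.88 CPM in those labelled dsLacZ (log2 fold change 0.54, edgeR adjusted p = 0.204). The lncRNA flam, the precursor of piRNAs that silence gypsy-like elements in ovarian somatic cells, held 5 members, copies of blood, mdg1 and Stalker2. Counts assigned to flam itself were low, at 1.68, 2.76 and 2.15 CPM in the libraries labelled dsFib and 2.34, 2.27 and 2.63 CPM in those labelled dsLacZ. One of its members, blood{}2438, averaged 34.8 CPM and held 30.5% of the counts of blood. Whether reads of that copy come from flam RNA cannot be told apart here.

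Of 52 genes listed as acting in transposon silencing or RNA interference 51 were found and 45 were tested. None was called in either direction by edgeR or limma-voom, and at an unadjusted p under 0.05 there were 3 higher and 9 lower (6.67% and 20% of those tested, against 7.67% and 8.26% of all genes). The median log2 fold change was -0.17, with 14 above 0 (31.1%) and 31 below, against -0.01 and 48.3% above 0 over all genes. It was -0.02 for 5 siRNA pathway genes, -0.17 for 21 piRNA pathway genes and -0.20 for 19 nuclear silencing factors. The smallest p belonged to nxf2, an RNA export factor variant that acts with Panx and Piwi in silencing at chromatin. It had 43.0, 41.5 and 41.7 CPM in the libraries labelled dsFib and 56.1, 53.2 and 60.2 CPM in those labelled dsLacZ, which did not overlap (log2 fold change -0.43, edgeR adjusted p = 0.0754). It was the one gene of the list that DESeq2 called. Next were mael, a piRNA pathway factor of the nucleus and nuage, at 36.7, 40.5 and 39.2 CPM in the libraries labelled dsFib and 48.7, 50.4 and 54.3 CPM in those labelled dsLacZ, and thoc5, a subunit of the THO complex, at 28.3, 34.1 and 30.2 CPM in the libraries labelled dsFib and 40.6, 39.4 and 43.5 CPM in those labelled dsLacZ. Their log2 fold changes were -0.40 and -0.42, with edgeR adjusted p-values of 0.0989 and 0.128. AGO2, the effector of the siRNA pathway, had 251.5, 289.3 and 260.0 CPM in the libraries labelled dsFib and 249.6, 168.6 and 244.8 CPM in those labelled dsLacZ (log2 fold change 0.27, edgeR adjusted p = 0.430). The gene piwi, which encodes a nuclear relative of AGO2 known from gonads, averaged 3.45 ± 0.87 CPM in the libraries labelled dsFib and 3.06 ± 2.19 CPM in those labelled dsLacZ (SD, n = 3 each).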

How the data were processed

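Per the file headers, each row of the tables deposited by the authors holds an estimated count with its CPM and TPM. The deposited CPM is the count scaled to a fixed total per library, and the deposited TPM is corrected for length and was used only to compare levels between copies. Build dm6, cutadapt 3.4, Bowtie2 and STAR are named in the submitters' processing notes, and counting was done with CoCo, as the names of the deposited tables say. The version of CoCo, its annotation and its use of strand are not stated in the labels or headers.

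Estimated counts were rounded and analysed over all rows with edgeR 4.0.16 in R 4.3.3: filterByExpr (8302 rows left), TMM, and the quasi-likelihood test with the group as the single term. Adjusted p-values are those of Benjamini and Hochberg over all rows tested, with calls at 0.05. A second fit summed all annotated copies of an element. Element names and positions come from the Ensembl annotation of BDGP6, which lacks 2 of the copies. A count was called fractional when it was more than 1e-06 from a whole number. Single values per library were compared by a two-sided exact permutation test. Depth was 11695250 to 15172052 counts, and p-values measure the spread between libraries, which may be technical. The fits were tested on simulated data.

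Named were the called copies, the 12 with the highest mean CPM, the 6 largest differences without overlap in each direction, 3 copies on either side of the minimum, their hosts, the 8 highest elements and the 3 silencing genes with the smallest p. Other copies, elements and genes were picked for mention after their values were seen. The members and lists were chosen with earlier results of these data known. Alternatives were DESeq2 1.42.0, limma-voom (limma 3.58.1), other scalings and filters, a replicate block and leaving out each library.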

Additional observations from a re-analysis of the deposited data

How the results depend on the processing

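Libraries are named here by their labels. One copy was called higher and none lower. With DESeq2's size factors in edgeR or a minimum mean count of 10 these counts held. No copy was called higher with total counts as the scaling or in limma-voom, and no element was with its copies summed. The 1 called copy lies inside a gene, so that none of the copies outside genes was called in the main fit either. With no filter on low counts 14 copies were called higher and 2 lower, and the share of all genes called in that fit is not given here. DESeq2 called 12 copies higher and 2 lower, where it called 2.28% of all genes higher and 1.58% lower. Leaving out 1 library gave 0 to 16 copies called higher and 0 to 1 lower, and the 16 came without dsLacZ replicate 2. DESeq2 called 1 element higher and 1 silencing gene lower, and leaving out 1 library gave 0 to 1 silencing genes called lower, the 1 without dsLacZ replicate 2. The same replicate numbers correlated at -0.05, -0.30 and -0.15 in their deviations from the group means. With 3 libraries per group these deviations cannot decide whether the numbers pair the libraries, and no label says so. With the replicate number as a block in edgeR no copy was called higher, and gypsy{}RR48391 had an adjusted p of 0.150.

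The median log2 fold change of the tested copies, 0.04, was -0.0038 with total counts, 0.066 with the replicate block, 0.069 in limma-voom, 0.024 to 0.14 when 1 library was left out, and 0.16 for members with a mean count of at least 50. Of 429 values of 33 named copies and elements under 13 other settings, 400 kept their direction and their side of the threshold, 8 lost a call, 8 gained one and 13 changed sign. The changes of sign were in differences near 0. With 1 library left out, log2 fold changes ran from -0.24 to 0.19 for 3S18{}3955, from -0.40 to 0.53 for 3S18{}35, from -0.37 to 0.088 for springer{}59, from -0.27 to 0.30 for 3S18 summed, from -0.094 to 0.046 for springer summed and from -0.069 to 0.015 for INE-1 summed. The highest of each came without dsLacZ replicate 1. The copy 3S18{}35 also had 0.041 with the block and 0.082 in limma-voom, and 3S18 summed had -0.065 with total counts. The cause of these changes was not tested. The copia sum had a log2 fold change of 0.29 to 0.42 and an adjusted p of 0.0541 to 0.534 over the 14 settings, and 30 or 31 of its copies were above 0 in each. The libraries' depth limits copies near the minimum of 10 counts, whose ratios rest on a few reads.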
